A study of Mus musculus with 2 samples.

Results

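In 2 mouse mammary tumors, 1 labelled Dll1+ and 1 labelled Dll1-, from which live cells without CD45 had been sorted, 51 fibroblasts had more genes detected from the set Il1rl1, Ret, Tnfrsf11b, F2rl1 and Adgrg2 than from any of 3 other sets of fibroblast genes. They were 23 of 408 gated fibroblasts in the Dll1+ library and 28 of 678 in the Dll1- library, out of 21702 barcodes kept in all. CD45 is the surface protein that marks leukocytes, and Dll1 is a membrane-bound ligand of Notch receptors. Both tumors were untreated, each was profiled once by 10x droplet sequencing (v3 chemistry), and before sorting the dissociated cells were stained for CD31, CD45 and Ter119, which mark endothelium, leukocytes and red cells. The labels name neither the step that made a tumor Dll1+ or Dll1- nor the strain and age of the mice.

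Each library stands for its group alone. The values below are therefore sums of raw counts of unique molecular identifiers (UMIs, which tag single captured transcripts) over cells, without a test, and every interval is a 95% interval for counting error only. A level is given in CPM, the usual depth-scaled unit, in which the UMIs of a gene are divided by all UMIs of the summed cells. A difference between 2 levels is given as log2((CPM + 1)/(CPM + 1)).

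A kept barcode had at least 1000 UMIs and 500 genes and at most 20% mitochondrial UMIs. A fibroblast was gated on at least 2 UMIs of at least 3 of Col3a1, Dcn, Lum, Dpt and Pdgfra, with fewer than 3 Rgs5, no Cdh5 and fewer than 2 Krt5 UMIs. The sets that had to score lower were called M (Tagln, Acta2, Thbs4, Cpxm2, Ltbp2), P (Smpd3, Thbd, Procr, Pcolce2, Scara5) and X (Cxcl13, Barx2, Crocc2, Col28a1, Cyp7b1). The members were thus chosen on their own counts, so that their levels of the genes of the 4 sets describe the choice. Of the 51 members, 5 were called on 1 detected gene, 46 had at least 2 and 30 had at least 3 of the 5 genes. At the threshold, the 29 members that led the next set by 1 gene (13 in the Dll1+ and 16 in the Dll1- library) had a median of 2 genes of the set, while the cells tied with another set (39 and 30) had a median of 1.

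The genes that define the cells encode receptors and 1 secreted decoy. Il1rl1 encodes ST2, the receptor for the alarmin IL-33, which is best known on mast cells, type 2 innate lymphoid cells and regulatory T cells and was first found as a growth-induced gene of mouse fibroblasts. Ret encodes a receptor tyrosine kinase that binds the GDNF family of ligands together with GFRα co-receptors and is best known in neurons and the developing kidney. Tnfrsf11b encodes osteoprotegerin, a soluble decoy receptor for RANKL and TRAIL. F2rl1 encodes PAR2, which is switched on by proteases such as trypsin and tryptase, and Adgrg2 is an adhesion G protein-coupled receptor. Ccl2, which played no part in the choice, encodes the chemokine that draws monocytes through CCR2.

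Il1rl1 has 2 annotated starts in the RefSeq table for GRCm38.p6, 10059 bases apart on the plus strand of chromosome 1, which in textbook accounts serve hematopoietic cells (the upstream start) and fibroblasts (the downstream one). The 250 bases before each start are shown because the same gene defines these fibroblasts and the leukocytes that were sorted away. Capitals mark GATAAG, the letters bound by GATA factors.
Il1rl1 upstream start, chr1:40429320-40429569: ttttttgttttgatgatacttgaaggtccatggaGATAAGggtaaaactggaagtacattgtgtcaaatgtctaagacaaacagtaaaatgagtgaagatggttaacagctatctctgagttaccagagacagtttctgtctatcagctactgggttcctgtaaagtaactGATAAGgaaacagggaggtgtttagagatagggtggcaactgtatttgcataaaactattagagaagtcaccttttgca
Il1rl1 downstream start, chr1:40439379-40439628: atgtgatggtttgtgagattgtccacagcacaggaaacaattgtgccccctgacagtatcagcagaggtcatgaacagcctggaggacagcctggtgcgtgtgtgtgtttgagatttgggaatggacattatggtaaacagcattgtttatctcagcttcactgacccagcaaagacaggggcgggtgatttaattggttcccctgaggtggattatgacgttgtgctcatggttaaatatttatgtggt
Searched on both strands, the upstream window held GATAAG at positions -216 and -79 from the start and the downstream window held none. GATAAG was found in 6.55% of the 32817 windows of 250 bases in the table. Neither window held the AP-1 letters TGANTCA, found in 6.75% of windows, or the TATA box letters TATAAA, found in 12.4%. The deposited counts are per gene and do not say which start was used. Of the 6 marker genes, 2 had an entry in the table.

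The shares of members were close in the libraries. Members made up 5.64% (3.61 to 8.34, exact Clopper-Pearson) of the gated fibroblasts of the Dll1+ library and 4.13% (2.76 to 5.91) of those of the Dll1- library, and the intervals overlap. The rest of the gate differed far more between the libraries. M cells were 33.6% and 6.34% of gated fibroblasts, P cells 27.5% and 70.5%, and X cells 11.3% and 6.64%, in the Dll1+ and the Dll1- library in that order. A comparison of members with all other fibroblasts therefore sets them mostly against M and P cells in the Dll1+ library and mostly against P cells in the Dll1- library. Members had a median of 8886 UMIs per cell in the Dll1+ and 10590 in the Dll1- library, against 9940 and 7334.5 in the other fibroblasts. Their summed depth of 214609 and 392651 UMIs means that a gene with 0 UMIs may still lie at up to 13.979 and 7.64 CPM (3 counts). The libraries shared 109 barcodes, and 0 of them were members.

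Of the 8 fibroblast markers looked at, 5 belong to the gate and describe it, and 3 (Col1a1, Col1a2 and Pdpn) do not. The chains of type I collagen stood at 11938 and 4678 CPM (Col1a1) and at 12614 and 5302 CPM (Col1a2) in members, with the Dll1+ library first, against 14.6 and 11.035 CPM and 12.7 and 11.6 CPM in epithelial barcodes. Pdpn, the membrane glycoprotein podoplanin, was at 517 and 232 CPM in members, and at 39.4 and 0.716 CPM in epithelial barcodes. None of the 3 differed from other fibroblasts by 1.5-fold in both libraries. Defining genes of the leukocytes known for ST2 were at 0. Cpa3, Mcpt4, Tpsb2, Cma1, Ms4a2 and Fcer1a of mast cells and basophils, Cd3e, Cd3d, Il7r, Il5, Il13 and Foxp3 of lymphoid cells, and Ptprc, which encodes CD45, had 0 UMIs in the members of both libraries. The same held for S100b of glia, which with neurons are known for RET, and for Vwf and Emcn of endothelium, while the gate itself required 0 UMIs of the endothelial gene Cdh5. Summed over their lists, mast cell genes stood at 4.66 and 10.2 CPM, leukocyte genes at 4.66 and 5.09 CPM and endothelial genes at 13.979 and 5.09 CPM. The lymphoid list summed to 93.2 and 96.8 CPM and the glial and neuronal list to 41.9 and 71.3 CPM, from genes that other fibroblasts also held, at 77.5 and 115 CPM and at 59.4 and 70.8 CPM.

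Epithelial transcripts were found in members, mainly in a few of them. The 9 epithelial genes Epcam, Krt8, Krt18, Krt7, Krt19, Cdh1, Cldn3, Cldn4 and Cldn7 summed to 969 CPM in the members of the Dll1+ library and 4612 CPM in those of the Dll1- library, against 1774 and 3043 CPM in other fibroblasts and 8856 and 13434 CPM in epithelial barcodes. All 9 genes were found in the members of both libraries. Milk protein genes summed to 238 and 3685 CPM, with Csn1s1 at 0 UMIs in the members of the Dll1+ library and at 321 CPM in the Dll1- library. Of the 51 members, 34 (17 in each library) had 0 Epcam and fewer than 3 Krt8 UMIs, and their epithelial sum was 171 and 452 CPM. The other 6 and 11 members had 3571 and 7583 CPM and supplied 23.5% and 58.3% of all member UMIs, including the deepest cell, with 63768 UMIs. The split was not sharp: in the Dll1- library, 1 of these members had only 2 UMIs of the 9 genes, while 1 of the 34 had 36. Whether the 17 barcodes outside the 34 hold an epithelial cell beside a fibroblast was not tested. Each count over a gene list is therefore given for all members and for the 34 members with 0 Epcam and fewer than 3 Krt8 UMIs, here called low-keratin members, and so are the values of the main genes.

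**Figure D1:**
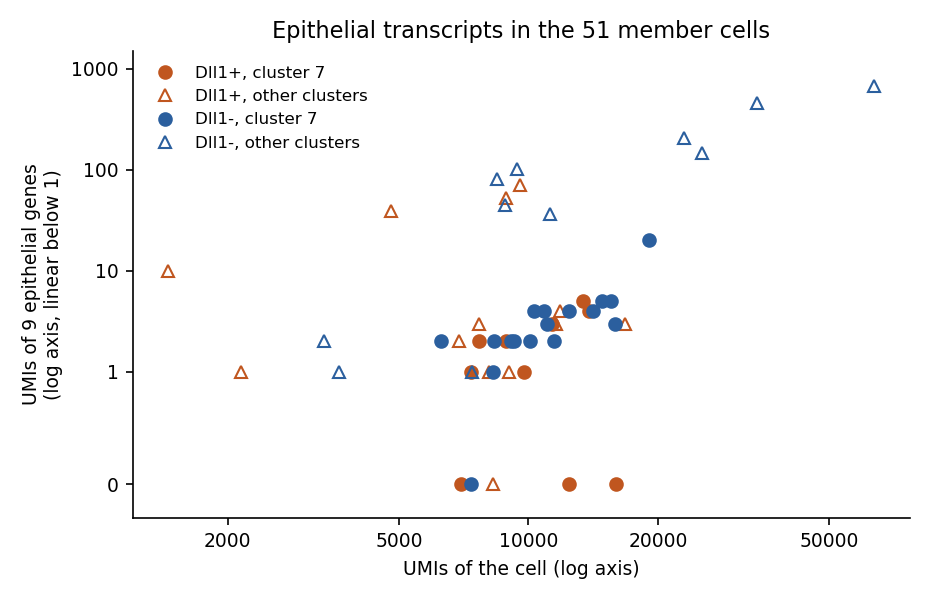
Each point is 1 of the 51 members, with its UMIs on the horizontal log axis and its UMIs of 9 epithelial genes on the vertical axis (log above 1, linear below); filled circles are cells of cluster 7, open triangles cells of the other clusters, orange the Dll1+ and blue the Dll1- library. The 12 members of cluster 3 have 10 to 668 epithelial UMIs, and all other members have at most 20.

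Members were most frequent in 1 group of fibroblasts that was defined without their marker genes, but many lay outside it. All gated fibroblasts were clustered on their other genes, leaving out the genes of the gate, of the 4 sets and Ccl2, which gave 7 clusters. Cluster 7, with 89 cells, held 27 of the 51 members: 10 of its 37 cells from the Dll1+ library (27.0%, 13.8 to 44.1) and 17 of its 52 cells from the Dll1- library (32.7%, 20.3 to 47.1). Cluster 3, with 184 cells and 2283 CPM of Krt8, held 12 members, 4 and 8 in the libraries. Cluster 2 held 10 and cluster 4 held 2, while clusters 1, 5 and 6, with 244, 102 and 89 cells, held none. Members outside cluster 7 were 13 of 23 in the Dll1+ library and 11 of 28 in the Dll1- library.

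**Figure D2:**
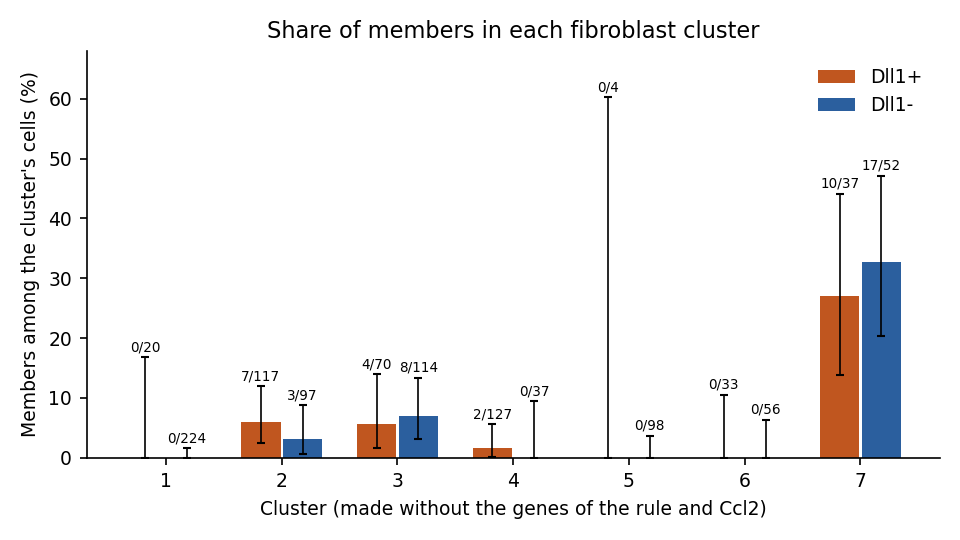
Bars give the percentage of each cluster's cells that are members, by library (orange Dll1+, blue Dll1-), with exact 95% intervals and the number of members over cells. Cluster 7 reaches 27.0% and 32.7%, and no other cluster passes 7.02%.

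Cells of cluster 7 that had not been chosen carried the same genes, mostly at levels between members and fibroblasts outside the cluster. In its non-members, Il1rl1 stood at 63.8 and 41.0 CPM (Dll1+ library first), Ret at 47.0 and 8.79 CPM, Tnfrsf11b at 87.3 and 84.9 CPM, F2rl1 at 30.2 and 32.2 CPM, Adgrg2 at 53.7 and 35.1 CPM, and Ccl2 at 843 and 1637 CPM. Other fibroblasts outside cluster 7 had 5.73 and 6.95 CPM of Il1rl1, 11.5 and 6.77 CPM of Ret and 26.4 and 28.4 CPM of Tnfrsf11b. They had 19.4 and 11.0 CPM of F2rl1, 11.7 and 15.6 CPM of Adgrg2 and 388 and 213 CPM of Ccl2. Ret in Dll1- non-members rested on 3 UMIs, near the outside level, and Tnfrsf11b in Dll1+ non-members was near the 92.9 CPM of cluster 7 members. The non-members included 30 P cells, 12 M cells and 18 cells tied between sets. The rule thus drew a line through cluster 7 and took in cells outside it. Only 13 of the 22 Dll1+ members and 16 of the 28 Dll1- members with at least 2000 UMIs were called again when every cell was thinned to 2000 UMIs, so membership of a single cell rested on a few molecules.

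Il1rl1 was found in 12 of 23 members of the Dll1+ library and 14 of 28 of the Dll1- library. Its level was 163 CPM (114 to 227) and 50.9 CPM (31.1 to 78.7), against 9.74 and 8.96 CPM in other fibroblasts. In other fibroblasts, 6.75% and 4.31% of cells had an Il1rl1 UMI, and in epithelial barcodes, with medians of 9598 and 11348 UMIs per barcode, 0.0261% and 0.0897%. Of the 35 UMIs in the Dll1+ members, 16 were in 1 cell. Among the 3 sets, P cells were next, at 16.2 and 10.7 CPM, then X cells at 7.47 and 2.40 CPM, while M cells had 0 UMIs in the Dll1+ library and 2.06 CPM in the Dll1- library.

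Ret was found in 16 of 23 and 7 of 28 members, at 135 CPM (90.5 to 194) and 28.015 CPM (13.985 to 50.1). Other fibroblasts had 13.9 and 6.89 CPM and epithelial barcodes 1.59 and 1.74 CPM. As with Il1rl1, P cells were next, at 24.3 and 8.18 CPM. Both genes were found together in 10 of 23 members of the Dll1+ library and 5 of 28 of the Dll1- library, and in 9 of 385 and 2 of 650 other fibroblasts. The pair that gives the cells their working name was therefore seen in 15 of the 51 members.

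The other defining genes were more even between the libraries. Tnfrsf11b stood at 103 CPM (64.2 to 155) and 99.3 CPM (70.6 to 136), with P cells next at 45.4 and 30.7 CPM. Adgrg2 was at 79.2 CPM (46.1 to 127) and 76.4 CPM (51.5 to 109), again ahead of P cells, at 25.96 and 20.1 CPM. F2rl1 followed another order: its 97.9 CPM (60.6 to 150) and 130 CPM (96.7 to 171) in members were followed by M cells, at 33.4 and 49.4 CPM, and by epithelial barcodes, at 30.1 and 33.4 CPM, with P cells at 7.30 and 5.45 CPM. Members of cluster 7 had 102 and 180 CPM of F2rl1, and members outside it 93.5 and 80.6 CPM. In cluster 3, 1 Dll1+ member with 10 epithelial UMIs and 1 Dll1- member with 146 were called on F2rl1 alone. The highest count, 7 UMIs, was in a Dll1- member with 461 epithelial UMIs. Whether epithelial transcripts brought cells into the members through F2rl1 was not tested. The pairs also differed by library. Ret with Tnfrsf11b and Ret with Adgrg2, each in 10 of 23 members, were as frequent as Il1rl1 with Ret in the Dll1+ library, while in the Dll1- library F2rl1 with Adgrg2 led, in 15 of 28 members against 5 of 650 other fibroblasts.

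**Figure D3:**
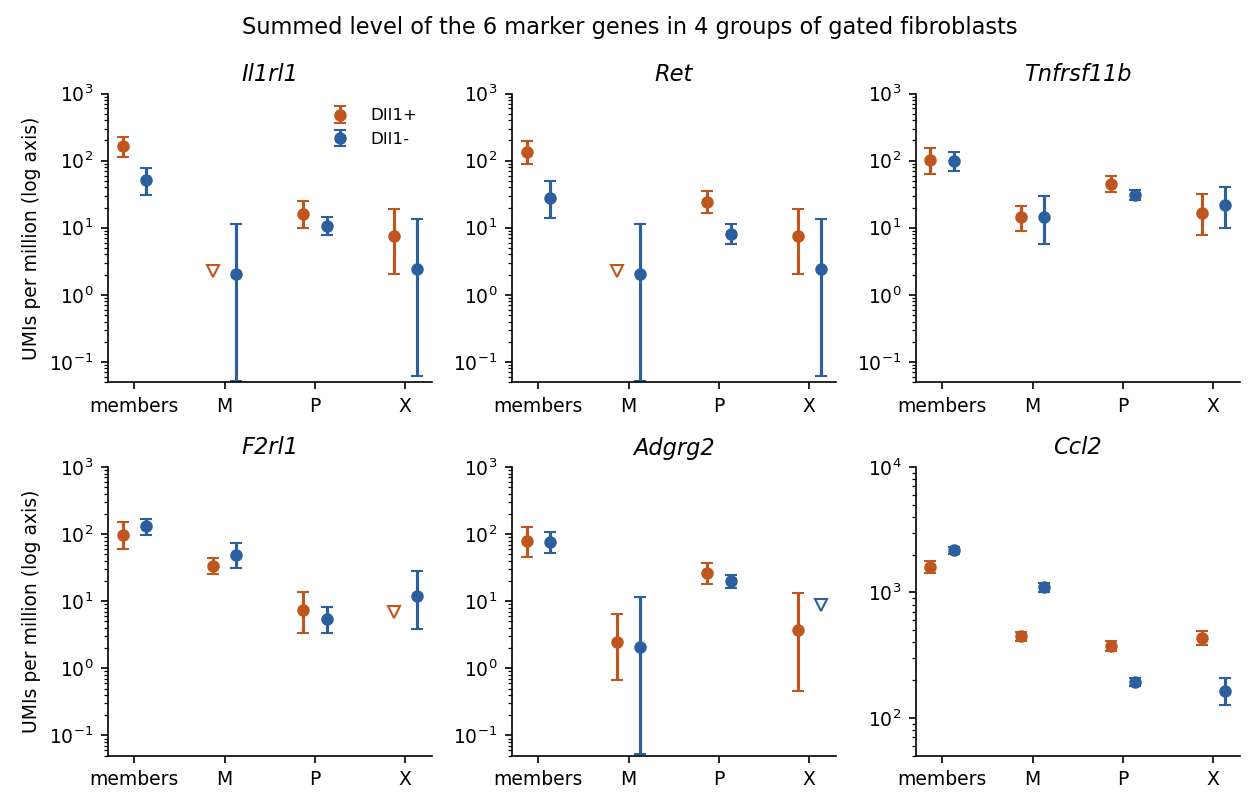
Points give the summed level (CPM, log axis) of the 6 marker genes in members and in M, P and X cells, with exact 95% Poisson intervals, orange for the Dll1+ and blue for the Dll1- library; an open triangle marks the upper limit where no UMI was found. Il1rl1 and Ret stand higher in Dll1+ than in Dll1- members, and Ccl2, which the choice did not use, stands at 1589 and 2167 CPM in members.

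Ccl2, the monocyte chemokine, was higher in members than in every other set. It stood at 1589 CPM (1425 to 1767) in the Dll1+ and 2167 CPM (2024 to 2318) in the Dll1- library, against 420 and 297 CPM in other fibroblasts, a log2 ratio of 1.92 (1.75 to 2.09) and 2.86 (2.75 to 2.99). Among the sets, M cells came next in both libraries, at 446 and 1099 CPM. Low-keratin members had 2028 and 3130 CPM, and the members of cluster 7 had 2583 and 4191 CPM. The 24 members outside cluster 7 had 589 CPM (453 to 753) and 186 CPM (131 to 257), and the second value is below that of other fibroblasts. Of the 63 UMIs behind the first value, 54 were in 1 cell, so it does not describe the Dll1+ members outside cluster 7 in general. The Ccl2 excess in the Dll1- library thus lay in the members of cluster 7. Epithelial barcodes had 458 and 109 CPM. The level was uneven among members: 10 of 23 and 8 of 28 had no Ccl2 UMI, and the 3 highest cells supplied 276 of the 341 UMIs in the Dll1+ library and 407 of the 851 in the Dll1- library.

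Ccl2 was 1 of few genes that were higher in members in both libraries. Of 7221 genes with at least 30 UMIs in the fibroblasts of each library and at least 20 CPM in 1 of the 4 sums, 34 (0.471%) exceeded other fibroblasts at least 2-fold in both libraries, and 145 (2.01%) lay at least 2-fold below them. Without the filter on UMIs, 43 genes were higher and 153 lower. The filter left out Csf2, which had few UMIs in all, with log2 ratios of 4.77 (4.17 to 12.6) and 4.38 (3.88 to 6.54). At 1.5-fold and over all 9403 genes with at least 30 UMIs, the counts were 230 (2.45%) and 612 (6.51%). These shares are the ones to read each list below against. For low-keratin members, set against other fibroblasts limited alike, they were 4.66% higher and 8.86% lower of 7363 genes, and for the members of cluster 7 they were 5.29% and 14.8% of 9332 genes. The counts and shares over all genes, here and between the libraries below, include genes of the gate and of the 4 sets. The choice itself shaped the levels of those genes. At 2-fold, F2rl1 and Adgrg2 were among the higher genes, and Cpxm2 and Cxcl13 were among the lower ones. The lists leave all genes of the gate and the sets out. The members were chosen within these same cells, so the counts describe them and are not evidence of a type. The genes named next were ranked by the smaller of the 2 log2 ratios.

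The 12 genes that ranked highest, with the genes of the 4 sets left out, were low in abundance apart from Ccl2. Bcat1, which starts the breakdown of branched-chain amino acids in the cytosol, was found in 4 of 23 and 13 of 28 members, at 46.6 and 68.8 CPM against 10.2 CPM in other fibroblasts of each library. In cluster 7 its level parted by library: the members there had 9.29 CPM (1 UMI) and 129 CPM, with the Dll1+ library first, and the members outside it 84.1 and 10.1 CPM. AA467197, a small mitochondrial protein gene, stood at 60.6 and 38.2 CPM against 14.4 and 12.1 CPM. Lgi3, a secreted leucine-rich repeat protein, stood at 41.9 and 35.7 CPM against 13.9 and 13.3 CPM, and Wnt10b, a Wnt ligand, at 27.96 and 22.9 CPM against 9.74 and 9.30 CPM. Both had their next highest level in P cells.

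Among the rest of the 12, Mvd, an enzyme of the mevalonate pathway, stood at 46.6 and 33.1 CPM against 18.1 and 12.6 CPM. Bace2, an aspartic protease, was at 46.6 and 22.9 CPM against 19.0 and 7.58 CPM. Cenpa, the centromeric histone, was at 65.2 and 48.4 CPM against 27.6 and 19.98 CPM, but in only 3 of 23 and 7 of 28 members. Trim16, a ubiquitin ligase, Arhgdig, Dffa, which holds the apoptotic DNase in check, and Rcc1, the exchange factor of Ran, had between 4 and 14 UMIs in the members of a library, and for Dffa, Rcc1 and Wnt10b the interval of the Dll1+ ratio reached below 0.

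More genes were lower than higher in members when these were set against all other fibroblasts. Mgp, matrix Gla protein, an inhibitor of calcification, stood at 149 and 33.1 CPM in members against 2779 and 387 CPM in other fibroblasts, log2 ratios of -4.21 (-4.77 to -3.72) and -3.51 (-4.46 to -2.77). Of the 32 Mgp UMIs in Dll1+ members, 23 were in 1 cell. M cells were the main holders of Mgp, at 6029 and 3237 CPM, and members were also below P cells, at 346 and 90.2 CPM, and X cells, at 377 and 168 CPM. Fmod, the collagen-binding proteoglycan fibromodulin, had 0 UMIs in members, at least 6.69-fold lower in the Dll1+ and 2.01-fold lower in the Dll1- library than in other fibroblasts. Its highest level was in M cells, at 240 and 161 CPM there, against 4.06 and 1.49 CPM in P cells. The levels of P cells lie below the 13.979 and 7.64 CPM that a count of 0 allows, so Fmod does not part members from P cells.

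Gask1b, Reg1, Reg3g, Comp and Cdk1 likewise had 0 UMIs in the members of both libraries. The bounds were at least 5.06-fold and 3.52-fold lower for Gask1b, a Golgi-associated protein, and 7.47-fold and 2.03-fold lower for Reg1, a secreted C-type lectin. Comp, an oligomeric cartilage matrix protein, was at least 4.40-fold and 1.51-fold lower, and Cdk1, the mitotic kinase, at least 1.61-fold and 1.65-fold lower. These bounds are against all other fibroblasts together and need not hold against each set. For Comp, the log2 ratios against M and P cells were -6.26 and -5.93 in the Dll1+ library. In the Dll1- library they were -5.66 and -2.38, and the added 1 CPM sets how low all of them are. Adh1 and Galnt15 were at 0 as well, but in the Dll1+ library other fibroblasts had 10.7 CPM of each, below the 13.979 CPM that a count of 0 allows. Saa3, an acute phase protein, stood at 51.3 and 2.55 CPM against 685 and 97.3 CPM.

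Genes of insulin-like growth factors and their binding proteins were mostly lower in members. Of 8 measured, 5 were at least 1.5-fold lower in members in both libraries and none higher, with medians of -1.42 and -1.16 against -0.05 and -0.01 over all genes. In low-keratin members 4 of 8 were lower and none higher. Igf1, the growth factor itself, stood at 93.2 and 38.2 CPM against 275 and 160 CPM. Igfbp2 had 2 UMIs and 0 UMIs, Igfbp4 was at 266 and 639 CPM against 1589 and 1336 CPM, and Igfbp7 at 820 and 385 CPM against 2001 and 899 CPM. Igfbp6 went the other way in the Dll1+ library, at 1179 against 644 CPM, and was level in the Dll1- library, at 1080 against 1074 CPM.

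Genes of Col15a1 fibroblasts, which lie along vessels and basement membranes in many tissues, were lower. Of 11 measured, 7 were at least 1.5-fold lower in both libraries and none higher, with medians of -1.16 and -1.55, and 8 of 11 were lower in low-keratin members. Col15a1 stood at 41.9 and 17.8 CPM against 99.1 and 73.7 CPM, and Smoc2, a secreted calcium-binding matrix protein, at 41.9 and 5.09 CPM against 192 and 28.9 CPM. The basement membrane chains Col4a1, at 200 and 115 CPM against 330 and 330 CPM, and Col4a2, at 88.5 and 38.2 CPM against 199 and 147 CPM, were part of this. Cxcl12, the chemokine that retains CXCR4-bearing cells, was at 410 and 176 CPM against 1292 and 705 CPM, with X cells far above, at 2876 and 2651 CPM.

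The secreted Wnt antagonist Sfrp1 followed the same order. It had 55.9 CPM in the Dll1+ and 5.09 CPM (2 UMIs in 1 cell) in the Dll1- members, against 575 and 170 CPM in other fibroblasts, with log2 ratios of -3.34 (-4.32 to -2.56) and -4.81 (-8.11 to -3.20). In the members of cluster 7 it had 0 UMIs in both libraries. Cxcl14, a chemokine of inflammatory fibroblasts, stood at 172 and 35.7 CPM against 1118 and 394 CPM, and 31 of its 37 UMIs in Dll1+ members were in 1 cell.

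Single genes of elastic microfibrils and of collagen were higher in members, but most genes of their lists did not pass 1.5-fold in both libraries. Mfap5, a microfibril glycoprotein, was found in all 51 members, at 4049 CPM (3784 to 4328) and 2728 CPM (2567 to 2896), against 1820 and 1656 CPM, with log2 ratios of 1.15 and 0.72. Low-keratin members had 4555 and 4469 CPM. Fbn1, fibrillin, the core of microfibrils, was at 3388 and 2152 CPM against 1665 and 1518 CPM, which falls short of 1.5-fold in the Dll1- library with all members (log2 0.50) and reached 0.68 in low-keratin members. Loxl2, which crosslinks collagen and elastin, was at 373 and 301 CPM against 175 and 163 CPM, and Col5a3, a minor fibrillar collagen chain, at 652 and 512 CPM against 288 and 248 CPM. Eln, the elastin gene, stood at 666 and 209 CPM against 985 and 418 CPM, and Mfap4, another microfibril gene, at 168 and 20.4 CPM against 346 and 97.3 CPM. Over the 18 genes of elastic fibres and crosslinking, 2 were at least 1.5-fold higher and 4 lower in both libraries, and 3 were higher and 3 lower in low-keratin members. Of 14 fibrillar and associated collagens, 1 (Col5a3) was higher and 2 (Col11a1, Col8a2) were lower. For Col8a2 the 0 UMIs in Dll1- members show only that it was at least 1.19-fold lower there. In low-keratin members 1 of 13 (Col5a3) was higher and 1 (Col11a1) lower.

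**Figure D4:**
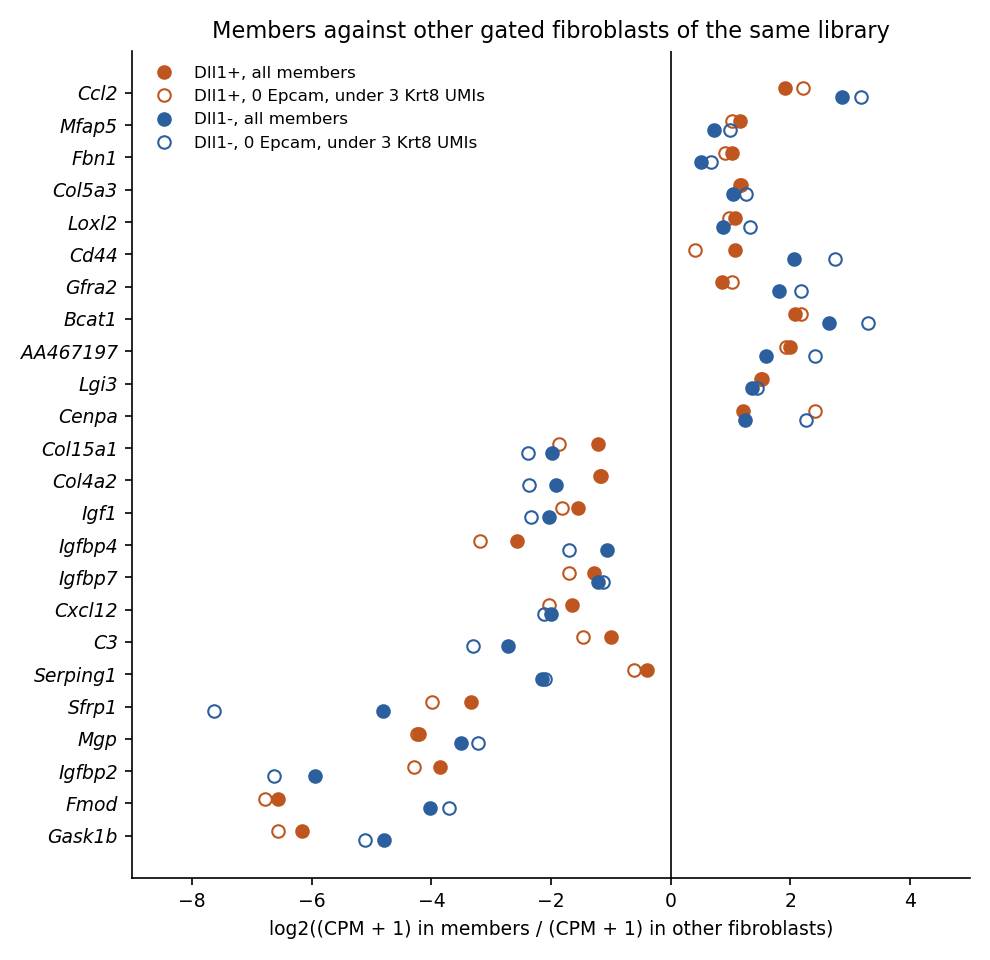
Points give the log2 ratio of (CPM + 1) in members over other gated fibroblasts of the same library for 24 genes, orange for the Dll1+ and blue for the Dll1- library, filled for all members and open for the 34 members with 0 Epcam and under 3 Krt8 UMIs (other fibroblasts limited alike). Ccl2, Mfap5, Col5a3 and Loxl2 lie right of 0 and Cxcl12, Igf1, Mgp and Col15a1 left of 0 in all 4 values; Fmod, Gask1b, Igfbp2 and Sfrp1 have 0 UMIs in some of the sums, so that the added 1 CPM sets how far left they lie.

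The partners of the defining receptors were mostly at or below their level in other fibroblasts. Il33, the ligand of ST2, stood at 354 CPM (279 to 443) and 91.7 CPM (64.2 to 127) in members against 475 and 256 CPM in other fibroblasts, with log2 ratios of -0.42 (-0.77 to -0.09) and -1.47 (-2.00 to -1.01). Il1rap, the second chain of the ST2 receptor complex, had 4 UMIs in each library, at 18.6 and 10.2 CPM against 19.95 and 21.7 CPM. Myd88, the adaptor of that complex, was at 23.3 and 22.9 CPM against 37.6 and 47.7 CPM. Of the 8 measured genes of the IL-33 axis, 1 (Myd88) was at least 1.5-fold lower in both libraries and none higher. In low-keratin members 1 of 7 was lower, and there it was Il33, while Myd88 had a log2 ratio of -0.30 in the Dll1+ library. Il1r1, the receptor for IL-1, was at 51.3 and 17.8 CPM against 101 and 64.2 CPM.

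Of the RET co-receptors, Gfra2, which binds neurturin, was found in 7 of 23 and 10 of 28 members, at 51.3 CPM (25.6 to 91.7) and 45.8 CPM (27.2 to 72.5) against 27.8 and 12.4 CPM. It was the 1 gene of 4 measured in its list at least 1.5-fold higher in both libraries, although the interval of the Dll1+ log2 ratio of 0.86 ran from -0.16 to 1.77. It was also the 1 gene of 3 in low-keratin members. In the members of cluster 7 it stood at 65.0 and 87.5 CPM, and in the members outside it at 37.4 and 5.04 CPM. Gfra1, the co-receptor for GDNF, had 0 UMIs in members, at least 2.32-fold lower than in other fibroblasts in the Dll1+ library. Nrtn, the ligand neurturin, was at 4.66 CPM (1 UMI) and 35.7 CPM against 22.3 and 17.9 CPM, but at 6.11 CPM in low-keratin members of the Dll1- library. Target genes of ERK signalling, which RET can switch on, gave 1 lower (Ccnd1) and none higher of 14. In low-keratin members 3 of 11 (Spry1, Egr1, Ccnd1) were lower, and in the members of cluster 7 there were 6 of 14 (Spry1, Dusp5, Dusp6, Etv1, Phlda1, Ccnd1), with none higher in either.

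Around osteoprotegerin, 0 of 5 measured partners passed 1.5-fold in both libraries in either direction, also in low-keratin members, and RANKL itself (Tnfsf11) had 0 UMIs in members. Among 13 genes of protease-activated receptors and proteases, 1 (Htra3) was at least 1.5-fold higher and 2 (F3, Serpine2) lower, and in low-keratin members none was higher and 2 (Plau, Serpine2) were lower. Serpine2, an inhibitor of thrombin and urokinase, stood at 126 and 33.1 CPM against 254 and 113 CPM. Prss23, a secreted serine protease, was at 1780 and 718 CPM against 748 and 630 CPM, which is a log2 ratio of 1.25 (1.09 to 1.40) in the Dll1+ and 0.19 (0.01 to 0.37) in the Dll1- library. Of 6 other adhesion receptors measured, 0 passed in both libraries, and in low-keratin members 2 of 5 (Adgra3, Adgrl2) were lower. Adgrd1 was higher in the Dll1+ library, at 331 against 154 CPM, and lower in the Dll1- library, at 132 against 210 CPM.

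No other measured monocyte or neutrophil chemokine was at least 1.5-fold higher in both libraries with all members. Of 7 genes of the monocyte list, 1 (Ccl2) was higher and 1 (Cx3cl1) lower, and of 4 genes of the neutrophil list none passed. In low-keratin members 2 of 6 monocyte genes (Ccl2, Il34) were higher and none lower. There 1 of 3 neutrophil genes (Csf3) was lower and none higher. Ccl7, which shares CCR2, stood at 1258 and 1080 CPM against 1013 and 714 CPM, log2 ratios of 0.31 and 0.60. In the members of cluster 7 Ccl7 was at 1682 and 1812 CPM, and both it and Cxcl1 passed there. Cxcl1, a neutrophil chemokine, was at 1244 and 1816 CPM against 990 and 1152 CPM in all members. The related Cxcl2 was at 228 CPM against 271 CPM in the Dll1+ library and at 723 CPM against 300 CPM in the Dll1- library, a log2 ratio of 1.27 (1.09 to 1.45) in the second. Cxcl3 had too few UMIs to be counted among the measured genes: it had 0 UMIs in Dll1+ members and 10 UMIs in Dll1- members, 9 of them in 1 cell, or 25.5 CPM against 0.344 CPM in other fibroblasts. Ccl11, the eosinophil chemokine eotaxin, was at 438 CPM against 296 CPM in the Dll1+ library and at 127 against 372 CPM in the Dll1- library. Of 14 genes of inflammatory cancer-associated fibroblasts, 1 (Ccl2) was at least 1.5-fold higher and 3 (Cxcl12, Cxcl14, C3) lower in both libraries, and the same 4 genes passed of 13 in low-keratin members. Il6 was at 177 CPM in 4 members against 131 CPM in the Dll1+ library and at 50.9 against 135 CPM in the Dll1- library.

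Cd44, the hyaluronan receptor, was higher in members in both libraries, at 359 CPM (283 to 448) and 565 CPM (493 to 645) against 171 and 134 CPM. Low-keratin members had 268 and 929 CPM, so the excess in the Dll1+ library (log2 0.41) was under 1.5-fold there. Timp1, an inhibitor of matrix metalloproteinases, was at 923 and 690 CPM against 587 and 348 CPM. Of 13 measured genes of matrix proteases and their inhibitors, 1 (Timp1) was at least 1.5-fold higher in both libraries and 2 (Mmp3, Mmp11) were lower. In low-keratin members none of 13 was higher, Timp1 included, and 1 (Mmp3) was lower. Of 10 complement genes, those at least 1.5-fold lower in both libraries included C2 and C3, and none was higher. In low-keratin members 5 of 10 were lower, Serping1 and Clu among them, and none higher. C3 stood at 624 and 374 CPM against 1254 and 2472 CPM.

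Between the libraries, Col1a1 differed in members as it did in other fibroblasts, and other genes did so in members alone or in the opposite direction, as values without a test. Col1a1, the main collagen chain, stood at 11938 CPM in Dll1+ and 4678 CPM in Dll1- members, a log2 ratio of 1.35 (1.26 to 1.44), and the same ratio in other fibroblasts was 1.34. In low-keratin members it was 0.68. Of 3066 genes with at least 30 UMIs in members and 50 CPM in 1 library, 295 (9.62%) were at least 2-fold higher in Dll1+ members and 232 (7.57%) in Dll1- members. At 1.5-fold the counts were 614 (20%) and 568 (18.5%). In low-keratin members, 263 of 1722 genes (15.3%) had at least 1.5-fold more and 298 (17.3%) at least 1.5-fold less in the Dll1+ library. With 1 tumor in each group, a difference between groups cannot be told apart from a difference between these animals or libraries.

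Complement genes were higher in Dll1+ members. Of 8 measured, 7 were at least 1.5-fold higher and 1 (Clu) lower, with a median log2 ratio of 1.92, against -0.07 for the same genes in other fibroblasts. In low-keratin members 7 of 7 were higher, with a median of 1.72. C4b, of the classical pathway, stood at 1086 CPM (951 to 1234) in Dll1+ and 237 CPM (191 to 290) in Dll1- members, while other fibroblasts had 981 and 1211 CPM. C1ra, a protease of the same pathway, was at 424 and 68.8 CPM, and Serping1, the inhibitor of C1, at 1319 and 390 CPM, with 1743 and 1733 CPM in other fibroblasts. Members of the Dll1+ library were thus within 1.5-fold of the other fibroblasts of their library for C4b, C1ra and Serping1, and members of the Dll1- library were below theirs. Other fibroblasts are mostly P cells in the Dll1- library, which hold 1359 CPM of C4b against 296 CPM in M cells.

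Genes of adventitial fibroblasts, the cells of vessel sheaths that are known as a source of other fibroblast types, were also mostly higher in Dll1+ members. Of 15 measured, 10 were at least 1.5-fold higher in Dll1+ members and none lower, with a median of 1.01, and in other fibroblasts 0 were higher and 6 lower, with a median of -0.53. Pi16, a marker of these cells, stood at 2866 CPM (2644 to 3101) and 578 CPM (505 to 658) in members. P cells had 2365 and 2356 CPM and M cells 681 and 494 CPM, so the Dll1+ members stood above the P cells of their library, and the interval of the Dll1- members overlapped that of the M cells of theirs. Cd55, a complement inhibitor, was at 783 and 155 CPM, and Dpp4, a surface peptidase, at 135 and 56.0 CPM. In low-keratin members 8 of 15 were higher and 1 lower, with a median of 0.74, and Pi16 was at 3228 and 728 CPM.

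Basement membrane genes were higher in Dll1+ members in 9 of 9 cases, with a median of 1.11 against 0.01 in other fibroblasts. In low-keratin members 4 of 7 were higher (Col4a1, Lama4, Lamb1, Lamc1), with a lower median of 0.60. Among the laminin chains, Lama4 was at 466 and 158 CPM, Lamb1 at 391 and 135 CPM and Lamc1 at 433 and 196 CPM, while the other fibroblasts of the 2 libraries had 180 and 178 CPM of Lama4. Has2, which makes hyaluronan, was at 140 and 20.4 CPM in members against 33.2 and 30.1 CPM in other fibroblasts. Timp3, a matrix-bound metalloproteinase inhibitor, was at 1146 and 217 CPM, and Serpina3n, a serpin of the acute phase, at 685 and 109.5 CPM. Il33 and Irak3, an inhibitor of signalling downstream of MyD88, were also higher in Dll1+ members, Irak3 at 103 and 17.8 CPM.

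The 10 genes with the highest ratios in Dll1+ members were Has2, Timp3, Serpina3n, C1ra, Mfap4 and 5 others. Of these, Dram1, an autophagy regulator, stood at 158 and 17.8 CPM, Lgi2, a secreted leucine-rich repeat protein, at 149 and 17.8 CPM, and Itm2a, a membrane protein, at 228 and 43.3 CPM. For Steap4, a metalloreductase, 13 of 27 UMIs, and for Cilp, a cartilage matrix protein, 15 of 28 UMIs in Dll1+ members came from 1 cell. In the members of cluster 7 Cilp had 0 UMIs (Dll1+) and 25.7 CPM (Dll1-), so that its direction was the opposite there.

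**Figure D5:**
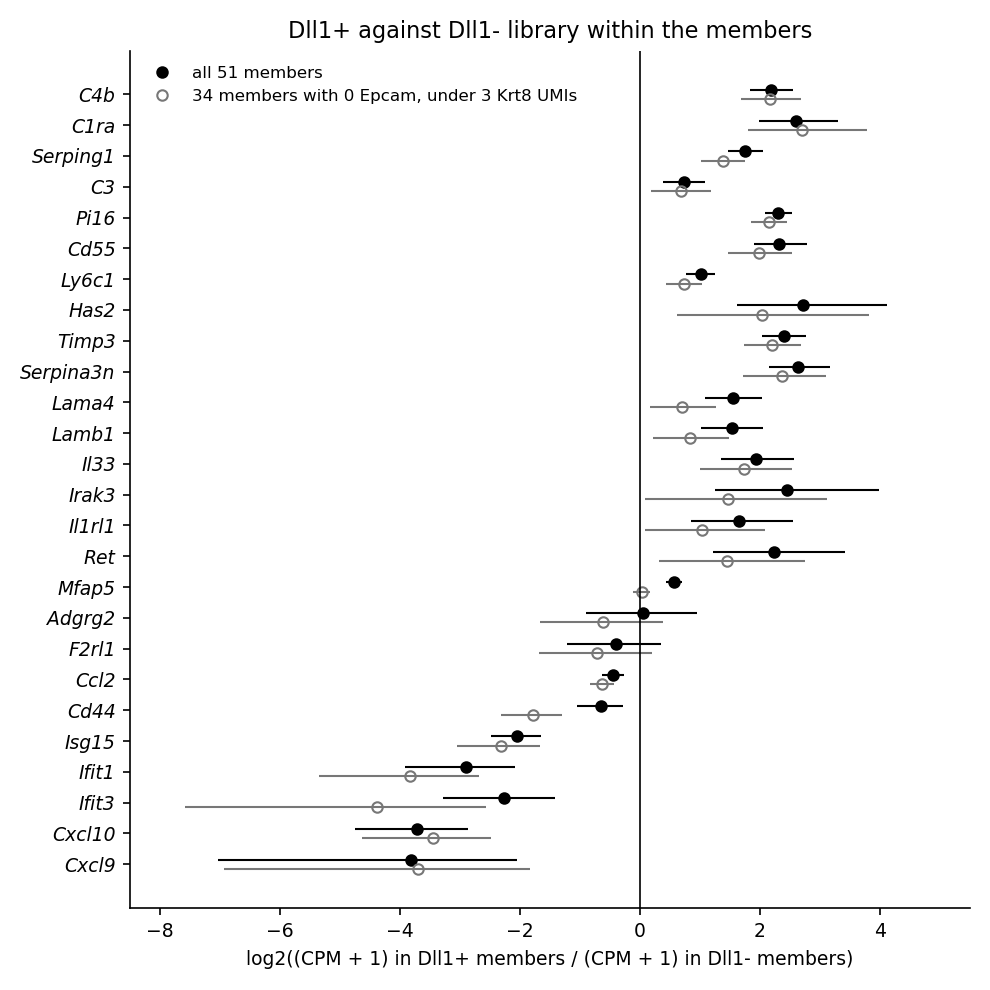
Points give the log2 ratio of (CPM + 1) in Dll1+ over Dll1- members for 26 genes with exact 95% intervals for counting error, filled for all 51 members and open for the 34 members with 0 Epcam and under 3 Krt8 UMIs. C4b, C1ra, Pi16 and Timp3 lie right of 0 and Isg15, Ifit1, Ifit3, Cxcl9 and Cxcl10 left of 0 in both sets.

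Interferon-stimulated genes were higher in Dll1- members. Of 14 measured, 10 were at least 1.5-fold lower in Dll1+ members and none higher, with a median of -1.04 against -0.22 in other fibroblasts. In low-keratin members 4 of 8 were lower and none higher, with a median of -0.69. Isg15, a ubiquitin-like modifier, stood at 256 CPM (193 to 334) in Dll1+ and 1062 CPM (963 to 1169) in Dll1- members, with 419 and 467 CPM in other fibroblasts and 1500 and 1162 CPM in epithelial barcodes. Low-keratin members had 140 and 703 CPM of Isg15. Ifit1, an RNA-binding antiviral protein, was at 55.9 CPM in 7 of 23 members and 425 CPM in 17 of 28. The chemokines Cxcl9 and Cxcl10, which draw CXCR3-bearing lymphocytes, were at 9.32 and 51.3 CPM in Dll1+ members and 145 and 683 CPM in Dll1- members. They came from few cells: 155 of the 268 Cxcl10 UMIs of the Dll1- members were in 1 cell, and Cxcl9 was found in 6 of 28.

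Several other genes with the highest ratios in Dll1- members were also held by epithelial barcodes, and others were nearly absent from low-keratin members. Csn1s1, a casein, Lalba, alpha-lactalbumin, and Thrsp, a regulator of fat synthesis, stood at 0, 9.32 and 4.66 CPM in Dll1+ and at 321, 288 and 265 CPM in Dll1- members, and at 707, 948 and 650 CPM in epithelial barcodes of the Dll1- library. Prtn3, Plb1, Acot1, Slc28a3 and Pdgfb stood at 81.5 to 138 CPM in Dll1- members, and in the low-keratin members of either library each of the 5 had at most 1 UMI. All 9 epithelial genes were higher in Dll1- members, and in other fibroblasts 7 of 9. Ifit3b, an interferon-stimulated gene, stood at 6.09 CPM (1 UMI) and 91.7 CPM in low-keratin members.

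The members were chosen on the 5 defining genes, so the library ratios of these genes only describe the choice. The log2 ratios of Dll1+ over Dll1- members were 1.66 for Il1rl1 and 2.23 for Ret, and 1.04 and 1.45 in low-keratin members. Ccl2 was lower in Dll1+ members, with a log2 ratio of -0.45 (-0.63 to -0.26), while in other fibroblasts it was higher, at 0.50. Dll1 itself had 0 UMIs in the members of both libraries, and stood at 49.6 and 3.93 CPM in the epithelial barcodes of the Dll1+ and Dll1- libraries. Of its receptors, Notch2 was at 51.3 and 81.5 CPM and Notch1 at 13.979 and 33.1 CPM in members.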

How the data were processed

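The authors deposited filtered 10x matrices of raw UMI counts per gene and barcode, from Cell Ranger (version 4.0.0, per the file headers) on mm10 per the submitters' processing notes. No label or header says whether doublets were removed before deposit, and none were removed here except in an alternative. Counts were summed over cells of a class in each library with pandas 2.3.3 and numpy 2.4.6, and exact Poisson, Clopper-Pearson and conditional binomial intervals were made with scipy 1.17.1. The ratios and their intervals were tested on simulated summed counts with known fold changes, drawn without extra spread between cells. The other steps were not tested in this way. Fibroblasts were clustered with scanpy 1.11.5 (2000 variable genes, 30 principal components, 15 neighbours, Leiden resolution 0.6) without the genes of the gate, the 4 sets and Ccl2. With 1 library per group, no test of the groups was made, and the total of deposited counts was 117230907 UMIs in the Dll1+ and 135960457 in the Dll1- library.

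Named genes are the 12 highest and 12 lowest against other fibroblasts by the smaller absolute log2 ratio (at least 30 UMIs in each library and 20 CPM in 1 sum), and the 10 highest and 10 lowest between libraries (at least 50 CPM in 1 library, leaving out genes over 5 times higher in other cell classes). Neither ranking took in genes of the rule, mitochondrial or ribosomal protein genes, gene models, Y-linked genes, Xist or Tsix. Marker genes and genes of the lists were named besides. A few results under these rules are not reported here. The members, the lists and the rule were chosen with earlier results of these data known. Alternatives thinned cells to 2000 UMIs, removed likely doublets or cells with epithelial transcripts, and changed the pseudocount of 1 CPM, the weighting and the filters.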

Additional observations from a re-analysis of the deposited data

Results flagged for a closer look

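For some lists and genes the members were above other fibroblasts in one library and below them in the other. The difference between the libraries was not tested in any of these cases, since each group is 1 library, and the other fibroblasts are made up differently in the libraries. All values are log2 ratios of members over other fibroblasts, with the Dll1+ library first.

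Of the lists, the GDNF family and RET co-receptors had medians of -1.107 and 0.7556 over 4 genes, and the neutrophil chemokines with Csf3 had medians of -1.306 and 0.9623 over 4 genes. Among interferon-induced genes, the ratios were -3.111 and 3.256 for Cxcl9, -2.116 and 2.447 for Cxcl10 and -1.341 and 1.519 for Ifit1. Low-keratin members kept both directions for these 3 genes, at -3.08 and 3.23, -0.89 and 1.99, and -1.13 and 2.48.

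Among cytokines and growth factors, the ratios were -2.066 and 1.632 for Lif, a cytokine of the IL-6 family, -1.816 and 1.194 for Hbegf, a ligand of the EGF receptor, and -2.364 and 2.594 for Cxcl5, a neutrophil chemokine. Low-keratin members kept both directions for Lif, at -2.26 and 1.63, the second from 3 UMIs, but in the members of cluster 7 Lif was lower in both libraries, at -3.00 and -2.24, with 1 UMI in each. All 13 Cxcl5 UMIs of the Dll1- members were in 1 cell, as were 65 of their 141 Hbegf UMIs. Low-keratin Dll1- members had 12.2 CPM of Hbegf and 0 UMIs of Cxcl5. For Cnn2, an actin-binding protein, the ratios were -1.068 and 1.034, and for Sox9, a transcription factor of cartilage and many epithelia, -2.094 and 1.161. Crabp1, which binds retinoic acid, had -4.766 and 1.386, where the first value is set by the added 1 CPM, since Dll1+ members had 0 UMIs, at least 1.88-fold lower than other fibroblasts. In the opposite order, the ratios were 1.359 and -1.198 for Il18, a cytokine of the IL-1 family, and 1.106 and -1.402 for Irak3.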

How the results depend on the processing

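The counts of genes at least 2-fold higher and lower in members in both libraries, 34 and 145, and at least 2-fold higher and lower in Dll1+ than in Dll1- members, 295 and 232, depended on the cells used. Thinned to 2000 UMIs, 19 genes were higher in members, and 51 were higher and 33 lower in Dll1+ members, with fewer genes past the filter, and 2 of the 34 and 30 of the 145 genes were shared. Without the highest doublet scores (2 and 7 members removed) the 4 counts were 66, 220, 137 and 99, and in low-keratin members 67, 244, 100 and 76. A pseudocount of 10 CPM gave 12 and 72, cells weighted alike gave 189 higher in Dll1+ members, and no filter gave 517. The members of cluster 7 alone, an alternative chosen after seeing the data, were 2.451% and 2.507% of gated fibroblasts and gave 131, 502, 103 and 91, and weighting M, P and X cells alike, also chosen then, gave 58 higher in members. Beyond the alternatives' own choice of cells and genes, the cause was not tested.

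Directions turned for few values. Thinned, Steap4 had a log2 ratio between libraries of -0.7092, and the neutrophil chemokine median in the Dll1- library was -0.1645. Without the highest doublet scores, Plb1 had 0.09904, Pdgfb 0.09904 and Slc28a3 2.564, the GDNF family median in the Dll1+ library was 0.04295 and the neutrophil chemokine median there 0.2788. In low-keratin members, Slc28a3 had 2.826, the GDNF family median in the Dll1+ library was 0.3317 and the Wnt median between libraries -0.3985. Slc28a3 had at most 1 UMI in the low-keratin members of either library, so the added 1 CPM sets its value there. Cells weighted alike gave 0.2472 for G2 and M phase genes in the Dll1- library. Without a filter, medians in the Dll1- library were -0.2135 for the GDNF family and -0.06106 for Notch genes. In the members of cluster 7, Cilp had -4.741, medians in the Dll1- library were -0.3319 for the GDNF family, -0.1347 for neutrophil chemokines, 0.007878 for FGF and HGF signals and 0.08581 for S phase genes, and medians between libraries were -2.453 for homeostatic and interferon chemokines and -0.02256 for inflammatory fibroblast genes. Of the other list medians, 1195 stayed within the spread set for them and 112 moved without turning, and of the named genes 379 and 123. No paired analysis was possible because each group is 1 library.

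With 214609 and 392651 UMIs in members, a gene under 13.979 CPM in the Dll1+ or 7.64 CPM in the Dll1- library can have gone unseen.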

Other observations

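Cell cycle genes were uneven among the members. Of 10 measured genes of the G2 and M phases, 1 (Ccnb2) was at least 1.5-fold higher in members in both libraries and 5 (Top2a, Cdk1, Ccnb1, Cenpf, Ube2c) were lower on the log2(CPM + 1) scale. For Ccnb1 the added 1 CPM sets that call, since its 0 UMIs in Dll1+ members show only that it was at least 1.18-fold lower there. The list had medians of -1.59 and -0.80, or -0.59 and -0.40 with genes at 0 UMIs set to their bound. Of 12 genes of the S phase, 4 (Mcm5, Mcm7, Rrm2, Gins2) were lower and none higher, and for Rrm2 the 0 UMIs in Dll1- members likewise show only that it was at least 1.22-fold lower there. Few of these genes had enough UMIs in low-keratin cells: 1 of 2 (Ube2c) and 2 of 6 (Mcm7, Tyms) were lower in low-keratin members.

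Of 17 immediate early and dissociation genes, 2 (Junb, Hspa1a) were at least 1.5-fold lower in members in both libraries and none higher. In low-keratin members there were 8 of 17 (Fos, Fosb, Junb, Egr1, Atf3, Hspa1a, Dnajb1, Nr4a1), where 8.86% of all genes were lower, and in the members of cluster 7 there were 6 of 17, where 14.8% were. Of 20 transcription factors of fibroblast position and development, 1 (Meox1) was higher and none lower. Meox1 had too few UMIs to be measured in either smaller set of cells. In low-keratin members none of 19 was higher and 2 (Meox2, Zeb2) were lower, and in the members of cluster 7 none of 19 was higher and 1 (Sox4) was lower. Of 14 genes of hypoxia and glycolysis, 0 passed 1.5-fold in both libraries in either direction with all members. In low-keratin members 1 of 12 (Slc2a1) was higher and 1 (Adm) lower, and in the members of cluster 7 there were 4 of 14 lower (Vegfa, Bnip3, Pdk1, Adm) and none higher.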
